A study of Homo sapiens with 6 samples.

Results

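The genes described here encode the machinery that copies DNA in S phase and the cyclin E and E2F regulators that act at the start of it. They were chosen by name, with earlier results of these data known, as a list of 56 genes. Of these, 55 had a probe set naming 1 gene, and all 55 passed the filter on low signals, out of 11963 genes named on the arrays and 7178 genes tested. UHRF1 was not analysed here. The comparison was between U87 cells, a human glioblastoma cell line, that express a dominant negative transgene of IRE1alpha (IRE1dn, labelled clone U87 IRE1.NCK DN, 3 arrays) and U87 cells transfected with the empty plasmid (ctrl, 3 arrays). IRE1alpha, encoded by ERN1, is a kinase and endoribonuclease of the endoplasmic reticulum membrane that senses unfolded proteins and splices the XBP1 transcript. Both groups were grown for 16 h in DMEM with 10% serum and glutamine before RNA was taken. The study looked for genes linked to tumour invasion and angiogenesis. Only 1 IRE1dn clone is named in the labels, whereas the empty-plasmid control is described as clones. The promoter that drives the transgene is not given in the sources used here, nor whether the replicates came from separate cultures. The p-values measure the spread between these arrays, which may be technical.

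DNA replication is prepared in G1, when the origin recognition complex (ORC), CDC6 and CDT1 load the MCM2 to MCM7 helicase onto origins, a step called licensing. At the start of S phase the kinases CDC7-DBF4 and cyclin E-CDK2 turn loaded helicases into active forks by recruiting CDC45 and the GINS complex, after which DNA polymerases alpha, delta and epsilon copy the strands. E2F transcription factors, released from retinoblastoma proteins as cells pass from G1 to S, are known to activate many of these genes, cyclin E among them.

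Signals are scaled array units, and every change is a log2 difference, IRE1dn minus ctrl, of log2(signal + 1.75), with its standard error (SE). Lists of 3 signals follow the order of arrays 1, 2 and 3 of the group, and values after ± are SDs (n = 3). Correlations of log2 signals over the tested genes were 0.976 to 0.984 within IRE1dn arrays, 0.939 to 0.954 within ctrl arrays and 0.841 to 0.886 between the groups. ERN1 itself measured 12.3 ± 1.53 units in ctrl and 11.1 ± 1.58 in IRE1dn cells, under the filter level of 13 units, and its probe set need not lie in the transgene, so it does not check the labels. The XBP1 transcript measured 232 ± 31.3 units in ctrl and 123 ± 8.97 in IRE1dn cells, a change of -0.90 (SE 0.16) with an adjusted p of 0.0057 when no filter was applied. Of 10 astroglial and glioma markers, VIM, CD44, SLC1A3 and NES lay above the filter level, while GFAP, S100B, SOX2, OLIG2, FABP7 and AQP4 lay under it. All measured endothelial (5), immune (4) and epithelial (5) markers lay under it, with summed signals of 26.9 to 37.1, 5.33 to 13.8 and 24.7 to 30.0 units in ctrl and 19.7 to 23.6, 10.3 to 20.2 and 20.3 to 34.1 units in IRE1dn arrays. Of 4 measured neuronal markers, SNAP25 lay above it, and the list summed to 119 to 278 units in ctrl and 241 to 292 in IRE1dn arrays.

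Most of the replication genes were more abundant in IRE1dn cells. Of the 55 tested, 40 rose and 2 (ORC4 and DBF4) fell at a limma adjusted p under 0.05, and 13 did not pass. Among all 7178 genes tested, 17.9% rose and 16.5% fell by the same test, 34.4% in either direction. The median log2 change of the 55 was 0.89, against 0.01 for all genes tested. The 40 increases ran from 0.47 in RFC4 to 1.98 in CCNE2, that is 1.38-fold to 3.93-fold, and 23 of them were at least 2-fold, against 8.92% of all genes tested that passed with at least a 2-fold increase. The 3 IRE1dn arrays lay above all 3 ctrl arrays for 44 of the 55 and below them for 4, compared with 26.0% and 24.2% of all genes tested. Of the 13 that did not pass, 8 were higher and 5 lower in value. The number that rose was 27 to 41 when 1 array was left out, the lowest without IRE1dn array 2. In RNA from whole cultures, more cells in S phase and more of each transcript per cell cannot be told apart.

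**Figure D1:**
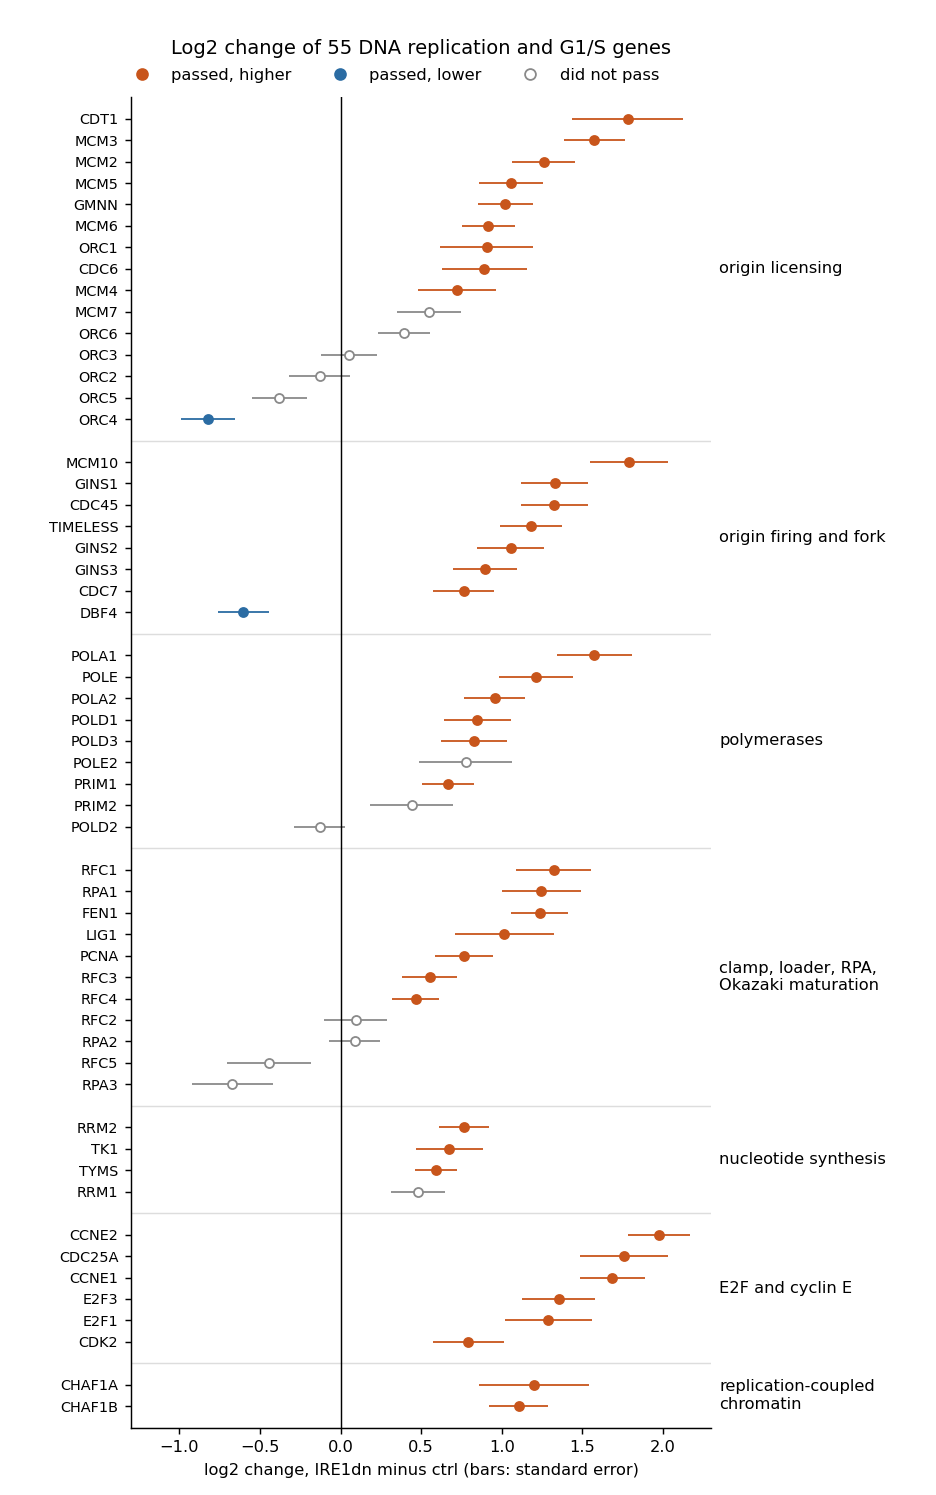
Log2 change (IRE1dn minus ctrl, horizontal axis) of each of the 55 genes, grouped by role, with bars for the standard error over 3 arrays a group; filled points passed a limma adjusted p under 0.05 and open points did not. Increases fill every group, and the 2 blue points are ORC4 (-0.82) and DBF4 (-0.60).

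The regulators of S phase entry had the highest median of the 7 roles. All 6 genes of the E2F and cyclin E group rose, against 17.9% of all genes tested, with a median log2 change of 1.52. CCNE2, cyclin E2, measured 94.3, 126 and 101 units on ctrl arrays and 475, 454 and 351 on IRE1dn arrays. The lowest IRE1dn array lay well above the highest ctrl array, and the log2 change was 1.98 (SE 0.19, adjusted p = 0.00015). CCNE1, cyclin E1, measured 44.8, 32.9 and 40.4 units in ctrl and 114, 136 and 139.7 in IRE1dn cells. It too had no overlap between the groups, with a change of 1.69 (SE 0.20, adjusted p = 0.00040). Both cyclins bind and activate the kinase CDK2, whose own change was smaller. CDK2 measured 127, 192 and 229.7 units in ctrl and 301, 305 and 320.3 in IRE1dn cells, a change of 0.79 (SE 0.22, adjusted p = 0.021), with IRE1dn arrays close together and ctrl arrays spread.

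CDC25A, the phosphatase that removes inhibitory phosphates from CDK2, measured 9.02, 11.1 and 16.6 units on ctrl arrays and 39.1, 49.3 and 45.6 on IRE1dn arrays. Its groups did not overlap, and the change was 1.76 (SE 0.27, adjusted p = 0.0015). It was the only 1 of the 55 genes with a group mean under the filter level, 12.2 units in ctrl, so the size depends on the pseudocount and was 1.11 with a pseudocount of 16. The activating factor E2F1 measured 32.4, 54.7 and 63.4 units in ctrl and 147, 103 and 116 in IRE1dn cells, and rose by 1.29 (SE 0.27, adjusted p = 0.0061). E2F3, another activating member of the family, measured 32.8, 52.9 and 34.2 units in ctrl and 100.2, 98.0 and 109 in IRE1dn cells and rose by 1.35 (SE 0.23, adjusted p = 0.0023). For both, every IRE1dn array lay above every ctrl array, and ctrl array 1 was the lowest. The CDK2 call ended without IRE1dn arrays 1, 2 and 3 (0.057, 0.070 and 0.082), in each case the adjusted p, and with the mean of its probe sets (0.058). The other 5 calls held with any 1 array left out.

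**Figure D2:**
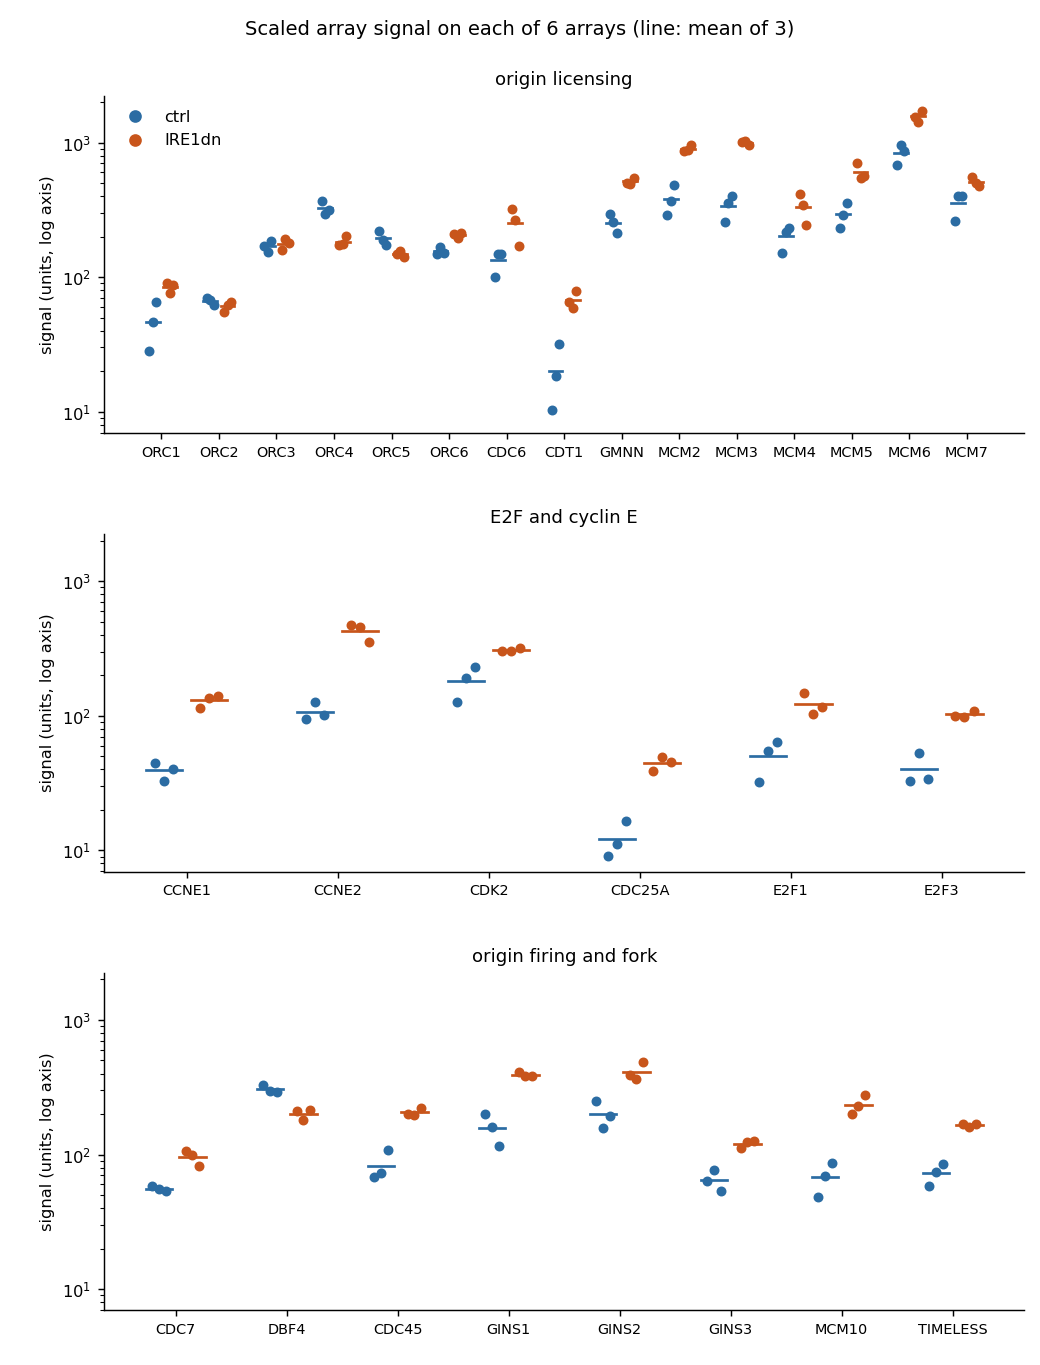
Scaled signal (vertical log axis, units) of the origin licensing, E2F and cyclin E, and origin firing genes on each of the 6 arrays, ctrl in blue and IRE1dn in orange, with a line at the mean of 3 arrays. The groups separate for all 6 E2F and cyclin E genes, while ORC2 and ORC3 overlap and ORC4 and DBF4 lie lower in IRE1dn cells.

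Among the 15 licensing genes, 9 rose (60%, against 17.9% of all genes tested), 1 fell and 5 did not pass, with a median of 0.89. Of the 6 ORC subunits, 1 rose and 1 fell, near the 17.9% and 16.5% of all genes tested. Differences between ORC subunits were not tested. ORC1, the subunit known to vary through the cell cycle, measured 28.2, 46.3 and 65.5 units in ctrl and 89.9, 75.6 and 88.1 in IRE1dn cells, a change of 0.91 (SE 0.29, adjusted p = 0.035). The groups did not overlap, but ctrl array 1 was the lowest, and the change was 0.60 without it. The ORC1 call ended without IRE1dn arrays 1, 2 and 3 (0.10, 0.074 and 0.11) or ctrl arrays 1 and 2 (0.069 and 0.060), and with no filter (0.061), in adjusted p. ORC4 measured 370.4, 294 and 315 units in ctrl and 174, 176 and 201 in IRE1dn cells. All IRE1dn arrays lay below all ctrl arrays, and ORC4 fell, with a change of -0.82 (SE 0.17, adjusted p = 0.0055). Its second probe set, which is dimmer, gave -0.68 with an adjusted p of 0.13. ORC2, ORC3, ORC5 and ORC6 did not pass, with changes of -0.13 (95% interval, not adjusted for the number of genes, -0.55 to 0.29), 0.05 (-0.33 to 0.43), -0.38 (-0.76 to 0.00) and 0.40 (0.03 to 0.76). ORC5 passed as lower with the mean of its probe sets (-0.77, adjusted p = 0.034).

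The helicase loaders and their inhibitor rose. CDT1, which brings the helicase to ORC, measured 10.3, 18.5 and 31.6 units in ctrl and 65.8, 59.4 and 78.3 in IRE1dn cells. The ctrl arrays were low and spread over a wide range, the IRE1dn arrays lay above all of them, and the change was 1.78 (SE 0.35, adjusted p = 0.0045). CDC6, the ATPase that works with CDT1, had 133 ± 28.9 units in ctrl and 252 ± 75.6 in IRE1dn cells, a change of 0.89 (SE 0.26, adjusted p = 0.026). GMNN, geminin, the inhibitor of CDT1, had 254 ± 41.6 units in ctrl and 514 ± 29.1 in IRE1dn cells, a change of 1.02 (SE 0.17, adjusted p = 0.0022). The CDC6 call ended without IRE1dn arrays 1 and 2 (0.10 and 0.094) or ctrl array 1 (0.072), in adjusted p, while those of CDT1 and GMNN held with any 1 array left out.

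All 6 MCM subunits were higher in value in IRE1dn cells and 5 passed (83.3%, against 17.9% of all genes tested that rose). MCM3 measured 255, 358 and 404 units in ctrl and 1006, 1027 and 952 in IRE1dn cells, a change of 1.57 (SE 0.19, adjusted p = 0.00039). MCM2 measured 291, 369 and 487 units in ctrl and 864, 879 and 954 in IRE1dn cells, a change of 1.26 (SE 0.19, adjusted p = 0.0015). MCM5 measured 232, 290.2 and 355 units in ctrl and 707, 546 and 563 in IRE1dn cells, a change of 1.06 (SE 0.20, adjusted p = 0.0036). For these 3 subunits the groups were clear of each other, and ctrl array 1 was the lowest and ctrl array 3 the highest of the ctrl arrays. MCM6 rose by 0.92 (SE 0.16, adjusted p = 0.0032) and MCM4 by 0.72 (SE 0.24, adjusted p = 0.042). MCM7 changed by 0.55 (adjusted p = 0.056), and passed without ctrl arrays 2 and 3 (0.045 and 0.035) and with array weights (0.048), in adjusted p. Without ctrl array 1, the lowest, it was 0.34 (adjusted p = 0.10). The MCM4 call ended without IRE1dn arrays 1 and 2 (0.15 and 0.13) or ctrl arrays 1 and 2 (0.11 and 0.056), with no filter (0.062) and with no intensity trend (0.059), in adjusted p, and its change was 1.23 on another of its 4 probe sets, all of which were higher.

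Because E2F factors bind a short sequence near the start of many of these genes, the 250 bases before each annotated start were searched in RefSeq promoter windows (GRCh38.p14). The words TTTCCCGC, TTTCGCGC, TTTGCCGC and TTTGGCGC, taken here as the E2F motif, were looked for on both strands. Of the 55 genes, 48 had at least 1 window, and 11 of these had several. MCM4, MCM5, POLD3, RPA2, RPA3, CCNE2 and CDK2 had none. Counting a gene by any of its windows, the E2F words were present in 18 of 48 genes (37.5%). They were present in 6.25% of the 6029 tested genes with a window and 3.4% of all 27305 genes with a window. The 18 were the licensing genes CDT1, GMNN, MCM3, MCM6, MCM7 and ORC3, the firing genes CDC7 and GINS2, the polymerase genes POLA1, POLA2 and POLE, the regulators CDC25A, E2F1 and E2F3, and PCNA, RFC3, LIG1 and TYMS. Of the 18 genes with the words 16 rose, and of the 30 without them 19 rose, with median log2 changes of 1.02 and 0.81, a difference that was not tested. The CCAAT word was present in 60.4% of the 48 and 43.6% of tested genes, and the GC box word GGGCGG in 77.1% and 76.8%. The word TTTGAA, known from promoters of mitotic genes, was present in 4.17% and 12.9%. E2F words on opposite strands can overlap each other and the GC box, and a gene was counted once per motif. A match is only a match of letters.

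The windows of the 3 genes with the largest increases among those with an E2F word, CDT1 (1.78), CDC25A (1.76) and MCM3 (1.57), are set beside that of ORC3, the gene with such a word that changed least (0.05). They are written 5′ to 3′ on the strand of the gene, end at the base before the annotated start, and carry the E2F word in capitals. They lie upstream of the annotated start at chr16:88803539-88803788 on the plus strand, chr3:48188418-48188667 on the minus strand, chr6:52284743-52284992 on the minus strand and chr6:87589885-87590134 on the plus strand.
CDT1: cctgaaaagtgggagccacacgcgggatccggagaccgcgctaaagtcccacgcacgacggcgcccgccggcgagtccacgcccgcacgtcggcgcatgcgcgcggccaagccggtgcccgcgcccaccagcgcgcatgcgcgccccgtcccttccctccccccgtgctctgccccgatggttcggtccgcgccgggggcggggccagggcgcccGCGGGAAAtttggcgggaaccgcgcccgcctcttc
CDC25A: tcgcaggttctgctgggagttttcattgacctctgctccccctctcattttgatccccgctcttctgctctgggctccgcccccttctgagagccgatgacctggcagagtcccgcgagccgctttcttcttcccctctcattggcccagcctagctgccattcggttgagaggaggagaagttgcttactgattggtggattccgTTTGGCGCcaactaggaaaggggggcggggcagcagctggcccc
MCM3: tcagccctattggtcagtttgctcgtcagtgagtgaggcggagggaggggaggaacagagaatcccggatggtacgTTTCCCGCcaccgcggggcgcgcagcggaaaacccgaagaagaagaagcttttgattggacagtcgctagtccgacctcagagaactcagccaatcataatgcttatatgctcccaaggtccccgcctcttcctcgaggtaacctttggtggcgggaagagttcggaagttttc
ORC3: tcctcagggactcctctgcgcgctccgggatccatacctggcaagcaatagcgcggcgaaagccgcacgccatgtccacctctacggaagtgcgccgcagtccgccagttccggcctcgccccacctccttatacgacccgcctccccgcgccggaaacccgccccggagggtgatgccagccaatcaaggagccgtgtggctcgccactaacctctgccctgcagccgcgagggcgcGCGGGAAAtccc
Each window held 1 match. Its first base lay 35 bases before the start in CDT1, 44 in CDC25A, 174 in MCM3 and 12 in ORC3. The same word, GCGGGAAA, the reverse complement of TTTCCCGC, stood near the start of CDT1, whose signal rose 3.43-fold, and of ORC3, whose signal changed by 0.05 on the log2 scale.

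Factors that fire origins rose as a group, with DBF4 as the exception. Of the 8 genes, 7 rose (87.5%, against 17.9% of all genes tested) and 1 fell, and the median was 1.12. MCM10, which helps to activate the loaded helicase, measured 47.9, 68.9 and 87.1 units in ctrl and 198, 231 and 275 in IRE1dn cells. The lowest IRE1dn array was more than 2-fold above the highest ctrl array, and the change was 1.79 (SE 0.24, adjusted p = 0.00076). CDC45, which joins MCM2 to MCM7 in the active helicase, measured 67.5, 73.4 and 107 units in ctrl and 200.2, 196 and 222 in IRE1dn cells, a change of 1.33 (SE 0.21, adjusted p = 0.0017). The GINS complex is the other partner of that helicase, and all 3 of its subunits on the list rose. GINS1 measured 199, 161 and 116 units in ctrl and 408, 386 and 381 in IRE1dn cells, a change of 1.33 (SE 0.21, adjusted p = 0.0015). Here ctrl array 1 was the highest of the ctrl arrays and array 3 the lowest, the reverse of MCM2 and MCM3. GINS2 rose by 1.06 (SE 0.21, adjusted p = 0.0046) and GINS3 by 0.90 (SE 0.20, adjusted p = 0.0080). The remaining subunit, GINS4, is not on the list, was read among other replication factors and was named after its value was seen. It changed by 0.80 (SE 0.27, adjusted p = 0.045), and its call held in only 2 of the fits that left out 1 array.

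TIMELESS, which stabilises forks, measured 58.4, 73.9 and 85.6 units in ctrl and 168, 159 and 168 in IRE1dn cells, a change of 1.18 (SE 0.19, adjusted p = 0.0021), with the IRE1dn arrays close together. The kinase that triggers firing split. CDC7, its catalytic subunit, had 55.4 ± 2.42 units in ctrl and 95.8 ± 11.8 in IRE1dn cells, a change of 0.76 (SE 0.19, adjusted p = 0.013). DBF4, the subunit that activates CDC7, measured 331, 294 and 293 units in ctrl and 209, 182 and 214 in IRE1dn cells, and fell, with a change of -0.60 (SE 0.16, adjusted p = 0.018). All IRE1dn arrays lay below all ctrl arrays for DBF4 and above them for CDC7. The 95% interval of the change was -0.96 to -0.24 for DBF4 and 0.34 to 1.19 for CDC7. The CDC7 call ended without IRE1dn arrays 1 and 2 (0.055 and 0.067) and the DBF4 call without IRE1dn arrays 2 and 3 (0.10 and 0.053), in adjusted p.

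Subunits of the replicative polymerases rose in 6 of 9 cases (66.7%, against 17.9% of all genes tested), fell in none, and had a median of 0.83. POLA1, the catalytic subunit of polymerase alpha, which starts new strands from an RNA primer, measured 47.1, 66.1 and 88.0 units in ctrl and 181, 214 and 198 in IRE1dn cells. IRE1dn arrays lay above ctrl arrays throughout, and the change was 1.57 (SE 0.24, adjusted p = 0.0013). Its partner POLA2 measured 79.4, 83.9 and 100.3 units in ctrl and 147, 193 and 177 in IRE1dn cells, a change of 0.96 (SE 0.19, adjusted p = 0.0048). Of the primase subunits that make the primer, PRIM1 rose by 0.67 (SE 0.16, adjusted p = 0.012), and PRIM2 had a change of 0.44 (95% interval -0.13 to 1.01) with overlapping groups. POLE, the catalytic subunit of polymerase epsilon, the leading strand enzyme, measured 25.2, 27.0 and 31.5 units in ctrl and 71.4, 53.0 and 78.5 in IRE1dn cells, a change of 1.21 (SE 0.23, adjusted p = 0.0039). Its accessory subunit POLE2 changed by 0.78 (adjusted p = 0.061), with ctrl array 3 far under ctrl arrays 1 and 2 (196, 170.2 and 84.9 units). POLE2 passed without ctrl array 1 (0.029) and with array weights (0.022), in adjusted p. Without ctrl array 3 its change was 0.41 (adjusted p = 0.10). POLD1, the catalytic subunit of the lagging strand polymerase delta, measured 48.3, 59.6 and 60.5 units in ctrl and 85.7, 101 and 123 in IRE1dn cells, a change of 0.85 (SE 0.21, adjusted p = 0.013). POLD3 rose by 0.83 (SE 0.20, adjusted p = 0.013), while POLD2 changed by -0.13 (95% interval -0.48 to 0.23) with overlapping groups. The calls of PRIM1, POLD1 and POLD3 ended without IRE1dn arrays 2 and 3 (0.071 and 0.062), without IRE1dn arrays 2 and 3 (0.053 and 0.064) and without IRE1dn array 2 (0.054), in that order and in adjusted p.

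The sliding clamp, its loader, the single-strand binding protein RPA and the enzymes that join Okazaki fragments made up 11 genes. They gave 7 increases (63.6%, against 17.9% of all genes tested), no decrease and a median of 0.55. FEN1, the nuclease that trims fragment ends, measured 321, 358 and 473 units in ctrl and 925, 945 and 822 in IRE1dn cells, a change of 1.24 (SE 0.18, adjusted p = 0.0010). LIG1, the ligase that seals them, measured 19.5, 39.3 and 38.1 units in ctrl and 84.4, 59.9 and 52.5 in IRE1dn cells, a change of 1.02 (SE 0.30, adjusted p = 0.028). Both were higher on every IRE1dn array than on any ctrl array, LIG1 by a narrower margin. The LIG1 call ended without IRE1dn arrays 1 and 2 (0.11 and 0.071) or ctrl array 1 (0.062) and, with no filter, at 0.054, all in adjusted p. PCNA, the clamp that holds polymerases on DNA, had 962 ± 204 units in ctrl and 1614 ± 138 in IRE1dn cells, a change of 0.77 (SE 0.18, adjusted p = 0.0099).

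Subunits of the same complex differed here. RFC1, the large subunit of the clamp loader, measured 86.5, 108 and 146 units in ctrl and 244, 346 and 261 in IRE1dn cells, a change of 1.32 (SE 0.23, adjusted p = 0.0027). RFC3 and RFC4 rose less, by 0.55 (SE 0.17, adjusted p = 0.030) and 0.47 (SE 0.15, adjusted p = 0.033). RFC2 and RFC5 did not pass, at 0.09 (95% interval -0.34 to 0.53) and -0.45 (-1.02 to 0.13), and their probe sets disagreed. Without ctrl array 1, the highest for RFC5, that change was -0.15. The other RFC2 probe set gave 0.72 with an adjusted p of 0.0086, and the other RFC5 probe sets gave 0.39 and 0.35. The calls of RFC3 and RFC4 ended without IRE1dn arrays 1, 2 and 3 (0.084, 0.086 and 0.12) or ctrl array 3 (0.065) and without IRE1dn arrays 1, 2 and 3 (0.094, 0.099 and 0.12) or ctrl array 2 (0.073), in that order and in adjusted p. They also ended with arrays set to equal medians (0.064 and 0.079), and that of RFC4 with no intensity trend (0.055).

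RPA, the trimer that coats single-stranded DNA, had subunits near both ends of the range of these 11 genes. RPA1, the large DNA-binding subunit, measured 209, 214 and 399.6 units in ctrl and 581, 634 and 655 in IRE1dn cells, a change of 1.25 (SE 0.24, adjusted p = 0.0045), with ctrl array 3 nearest to the IRE1dn arrays. RPA2 had overlapping groups and a change of 0.09 (95% interval -0.27 to 0.44). RPA3, the small subunit, measured 1499, 755 and 779 units in ctrl and 640.2, 639.5 and 531 in IRE1dn cells. All IRE1dn arrays of RPA3 lay below all ctrl arrays, with ctrl array 1 far above the rest, and the change was -0.67 (-0.35 without ctrl array 1, 95% interval -1.23 to -0.11, adjusted p = 0.063). RPA3 passed as lower without ctrl arrays 2 and 3 (0.041 and 0.034), in adjusted p, and with arrays set to equal medians (0.046). The differences between subunits were not themselves tested.

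Among enzymes that make DNA precursors, 3 of 4 genes rose (75%, against 17.9% of all genes tested), with a median of 0.63. None reached 2-fold. RRM2, the cell-cycle regulated subunit of ribonucleotide reductase, measured 1205, 1107 and 1315 units in ctrl and 1719, 2117 and 2380.0 in IRE1dn cells, a change of 0.77 (SE 0.16, adjusted p = 0.0053). TYMS, thymidylate synthase, measured 1361, 1305 and 1364 units in ctrl and 1895, 1971 and 2229 in IRE1dn cells, a change of 0.59 (SE 0.13, adjusted p = 0.0072), with ctrl arrays nearly equal to each other. TK1, the thymidine kinase of the salvage route, measured 205, 143 and 242 units in ctrl and 319, 302 and 302 in IRE1dn cells, a change of 0.68 (SE 0.21, adjusted p = 0.031). The groups did not overlap for any of the 3. RRM1, the other reductase subunit, changed by 0.48 (adjusted p = 0.052). It passed without ctrl array 3 (0.025), with the mean of its probe sets (0.032) and with array weights (0.038), in adjusted p. Without ctrl array 1 its change was 0.31 (adjusted p = 0.11). The TK1 call ended without IRE1dn arrays 1, 2 and 3 (0.092, 0.093 and 0.094) or ctrl array 2 (0.070), in adjusted p, and the TYMS call with the mean of its probe sets (0.15), where its second probe set is dim.

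CHAF1A and CHAF1B, subunits of the chromatin assembly factor that places histones behind the fork, both rose. CHAF1A measured 28.6, 79.6 and 73.2 units in ctrl and 119, 128 and 141 in IRE1dn cells, a change of 1.20 (SE 0.34, adjusted p = 0.023). Ctrl array 1 was far below the other ctrl arrays, and without it the change was 0.75 (adjusted p = 0.015). The CHAF1A call ended without IRE1dn arrays 1, 2 and 3 (0.054, 0.065 and 0.086), in adjusted p. CHAF1B measured 48.7, 49.4 and 53.2 units in ctrl and 121, 106 and 105 in IRE1dn cells, a change of 1.10 (SE 0.18, adjusted p = 0.0021), and here the arrays of each group lay close together.

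Averaged over the genes of a group, each IRE1dn array stood above each ctrl array for every role. Relative to the ctrl mean, the E2F and cyclin E genes averaged 1.47 to 1.48 log2 units on the IRE1dn arrays and -0.26 to 0.16 on the ctrl arrays. The firing genes averaged 0.92 to 1.03, the polymerases 0.75 to 0.82, the licensing genes 0.63 to 0.70, the nucleotide enzymes 0.55 to 0.72 and the clamp, loader, RPA and Okazaki group 0.47 to 0.55 on the IRE1dn arrays. All genes tested averaged 0.03 to 0.05 there and -0.04 to 0.02 on the ctrl arrays. Each IRE1dn array thus stood above each ctrl array for all genes tested as well, by a far smaller gap. On each of the 3 IRE1dn arrays the E2F and cyclin E average was the highest of these 6 groups, and the difference between groups was not tested. With a pseudocount of 16, which reduces the weight of dim genes, the median change was 1.10 for E2F and cyclin E and 1.02 for the firing genes. The IRE1dn arrays were nearly equal over the 55 genes (0.79 to 0.81), while the ctrl arrays ran from -0.12 in array 1 to 0.10 in array 3. The ctrl arrays did not differ in 1 direction for all genes: array 1 was the lowest ctrl array for 31 of the 55, CDT1, CDC45 and MCM10 among them, and array 3 for 13, GINS1, PCNA and POLE2 among them. The median SD of a gene was 0.30 on ctrl and 0.13 on IRE1dn arrays for the 55, and 0.29 and 0.17 for all genes tested.

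**Figure D3:**
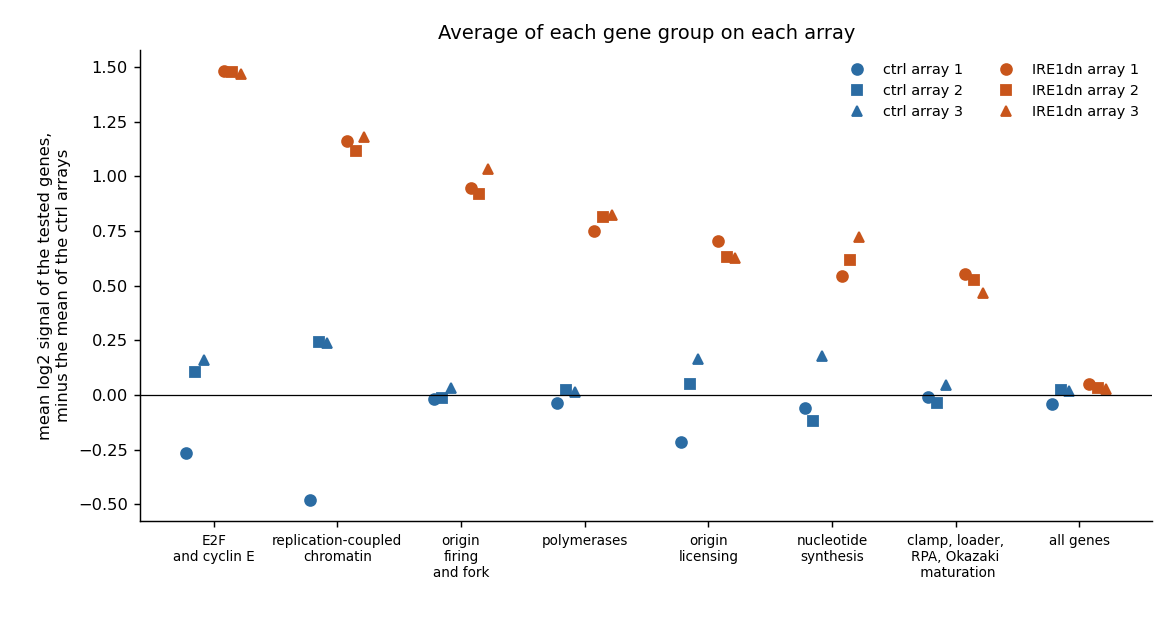
Mean log2 signal of the tested genes of each group on each array, relative to the mean of the ctrl arrays (vertical axis), with ctrl arrays in blue, IRE1dn arrays in orange and a marker shape for each array number. The IRE1dn arrays lie at 1.47 to 1.48 for E2F and cyclin E and at 0.03 to 0.05 for all genes tested. Ctrl array 1 is the lowest ctrl array for licensing, E2F and cyclin E, chromatin, polymerase and firing genes. It is also the lowest for all genes tested (-0.04).

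Other probe sets gave a second reading of the same RNA for 23 of the 55 genes. These genes had 30 further probe sets, of which 25 lay above the filter level. Of the 22 further probe sets of genes that rose, 22 were higher in value in IRE1dn cells, and the 18 of them above the filter level had a median log2 change of 1.16. These genes had already been called on the same arrays, and the matching share over all genes was not computed. The 2 probe sets of CCNE2 gave 1.98 and 1.92, those of E2F1 1.29 and 1.13, those of RPA1 1.25 and 1.21, and those of FEN1 1.24 and 1.26. The largest gap within a gene that rose was in CDC25A, 1.76 and 0.60, both dim. The probe sets used for ORC6, RFC1 and CHAF1A have probes that may also detect similar transcripts.

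**Figure D4:**
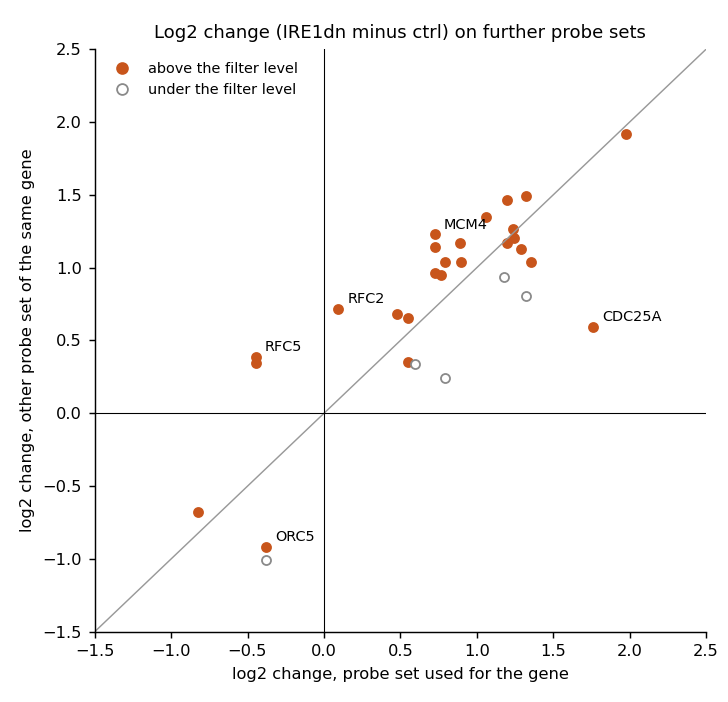
Log2 change (IRE1dn minus ctrl) of each further probe set (vertical axis) against that of the probe set used for the same gene (horizontal axis), with the line of equality; filled points lie above the filter level on the mean log2 signal of 6 arrays. All 22 points of genes that rose lie above 0, and the 2 further points of RFC5 lie above 0 where the probe set used lies under it.

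Outside the 55 genes, 5 lists of other cell cycle and nucleotide genes were read by the same test. Of 23 tested replication and repair factors, 18 rose (78.3%, against 17.9% of all genes tested) and 0 fell, with a median of 0.86. HELLS, a chromatin remodeller, had 29.9 ± 10.0 units in ctrl and 123 ± 49.9 in IRE1dn cells, a change of 1.94 (SE 0.36, adjusted p = 0.0038). EXO1, an exonuclease of mismatch repair, had 50.3 ± 8.01 units in ctrl and 175 ± 17.0 in IRE1dn cells, a change of 1.77 (SE 0.20, adjusted p = 0.00030). ATAD2, a chromatin ATPase, rose by 1.44 (SE 0.26, adjusted p = 0.0031), and ASF1B, a histone chaperone, by 1.33 (SE 0.24, adjusted p = 0.0030). Of 15 other nucleotide metabolism genes 2 rose (13.3%, near the 17.9% of all genes tested) and 0 fell, with a median of 0.28. The 2 were IMPDH1, of guanine nucleotide synthesis (1.36, SE 0.26, adjusted p = 0.0043), and CAD, of pyrimidine synthesis (0.73, SE 0.17, adjusted p = 0.011), which did not pass without IRE1dn array 2 (0.060), in adjusted p.

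Of 19 tested D cyclins, CDK4 and CDK6, retinoblastoma proteins, other E2F genes and CDK inhibitors, 4 rose (21.1%) and 0 fell, with a median of 0.38. The share that rose is near the 17.9% of all genes tested. E2F8, an atypical E2F that represses E2F targets, had 98.9 ± 18.8 units in ctrl and 266 ± 7.57 in IRE1dn cells, a change of 1.43 (SE 0.18, adjusted p = 0.00062). SKP2, which marks CDK inhibitors for degradation, rose by 0.98 (SE 0.17, adjusted p = 0.0025), RBL1, a retinoblastoma relative, by 0.77 (SE 0.20, adjusted p = 0.016) and CCND3, cyclin D3, by 0.71 (SE 0.22, adjusted p = 0.030). The SKP2 call ended with the mean of its probe sets (0.55, adjusted p = 0.11). Those of RBL1 and CCND3 ended without IRE1dn arrays 1 and 2 (0.068 and 0.056) and without IRE1dn arrays 1, 2 and 3 (0.081, 0.093 and 0.098) or ctrl arrays 1 and 2 (0.068 and 0.073), in that order and in adjusted p. The CDK inhibitors CDKN1A and CDKN1B changed by 0.34 (95% interval -0.02 to 0.70) and -0.26 (-0.65 to 0.14), and cyclin D1, CCND1, by 0.41 (-0.41 to 1.23), none of which passed. Without ctrl array 1, its lowest ctrl array, CCND1 changed by -0.11, and its other probe set was lower in value in IRE1dn cells. MYC had 259 ± 96.1 units in ctrl and 438 ± 80.8 in IRE1dn cells, a change of 0.81 (adjusted p = 0.051). With 1 array left out the MYC change was 0.47 to 1.04, the lowest without ctrl array 1, its lowest ctrl array. MYC passed in 1 of those fits. CDKN1A, CDKN1B, CCND1 and MYC were named after their values were seen.

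Of 11 tested replication checkpoint genes, 1 rose and 3 fell, where 17.9% and 16.5% of all genes tested did. With so few genes these counts are near the shares of all genes. WEE1, the kinase that restrains CDK activity, had 101 ± 12.2 units in ctrl and 297 ± 12.5 in IRE1dn cells, a change of 1.55 (SE 0.17, adjusted p = 0.00029). CHEK2, a checkpoint kinase, fell, with a change of -1.01 (SE 0.21, adjusted p = 0.0066). GADD45A and RAD17 fell, with changes of -0.98 (SE 0.26, adjusted p = 0.017) and -0.65 (SE 0.17, adjusted p = 0.016). The GADD45A call ended without IRE1dn array 3 (0.076), and that of RAD17 without IRE1dn arrays 2 and 3 (0.080 and 0.081) and with the mean of its probe sets (0.20), in adjusted p. Of 30 G2/M genes, 4 rose (13.3%) and 7 fell, with a median of 0.11. Against the 17.9% and 16.5% of all genes tested, the share that rose was somewhat lower and the share that fell somewhat higher. With 30 genes both counts remain near those shares. The largest changes downward were those of CCNB1, cyclin B1 (-1.35, SE 0.14, adjusted p = 0.00026), the kinase PLK1 (-1.31, SE 0.26, adjusted p = 0.0051), CDC20, an activator of the anaphase promoting complex (-0.92, SE 0.17, adjusted p = 0.0035), and securin, PTTG1 (-0.82, SE 0.16, adjusted p = 0.0048). The 4 that rose were CENPF, a kinetochore protein (1.26, SE 0.31, adjusted p = 0.013), the proliferation marker MKI67 (1.05, SE 0.29, adjusted p = 0.019), and the spindle proteins KIF11 (1.02, SE 0.26, adjusted p = 0.015) and TPX2 (0.64, SE 0.19, adjusted p = 0.028).

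The calls of CENPF, MKI67, KIF11 and TPX2 ended without IRE1dn array 3 (0.061), without IRE1dn arrays 1 and 3 (0.059 and 0.077), without IRE1dn arrays 1 and 2 (0.051 and 0.061) and without IRE1dn arrays 1, 2 and 3 (0.062, 0.066 and 0.11) or ctrl array 1 (0.055), in that order and in adjusted p, that of TPX2 also with no intensity trend (0.051), and MKI67 changed by 0.69 without ctrl array 1. For the G2/M list the ctrl arrays averaged -0.29, 0.03 and 0.26 log2 units relative to the ctrl mean, and the IRE1dn arrays lay between the lowest and the highest of these. The part of cell cycle differences between ctrl arrays in these results was not tested.

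**Figure D5:**
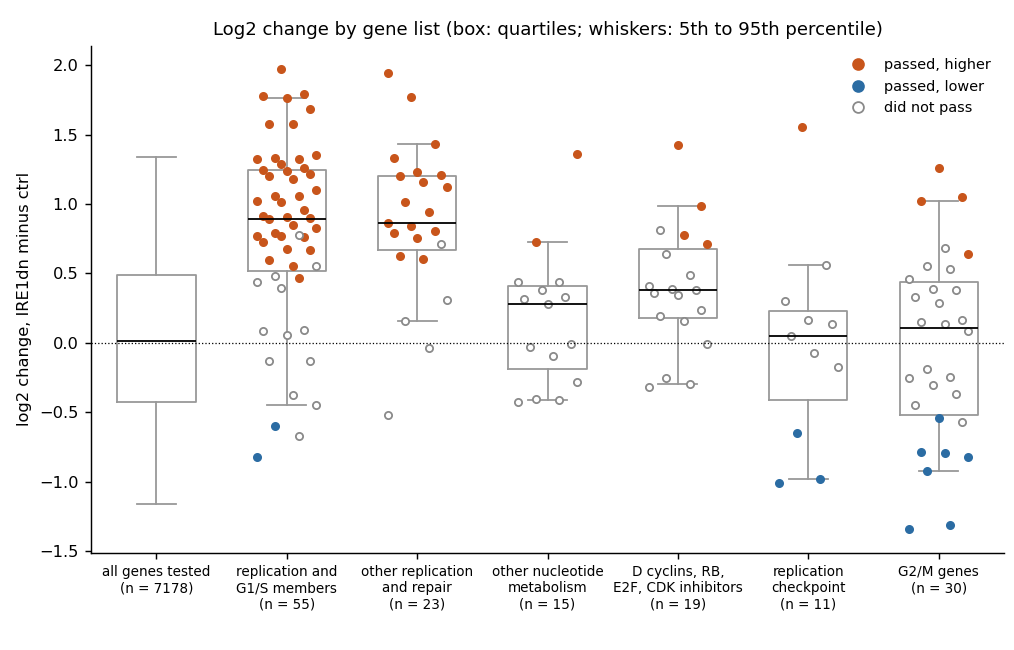
Log2 change (IRE1dn minus ctrl, vertical axis) of each tested gene in the replication list and in 5 further lists, with a box at the quartiles and whiskers at the 5th and 95th percentiles; for all 7178 genes tested only the box and whiskers are drawn. The medians are 0.89 for the 55 genes, 0.86 for other replication and repair factors, 0.11 for G2/M genes and 0.01 for all genes tested.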

How the data were processed

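RNA of 6 samples was measured on 6 arrays, 3 a group. Per the submitters' processing notes, GCOS 1.2 was used. The authors deposited linear intensities for 22277 probe sets. The summarisation method is not given in the sources used here. Arrays had equal 2% trimmed means (99.97 to 99.98 units), so a change shared by all transcripts would not be seen.

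Of the probe sets, 19064 named 1 gene in the platform annotation, 1043 several and 2108 none, and 62 were controls. By gene identifier 19052 of the 19064 matched a RefSeq symbol (GRCh38.p14). Each of 11963 genes was represented by its probe set of highest mean log2(signal + 1.75), where 1.75 is the 20th percentile of all values. The 7178 genes above the 40th percentile of that mean were tested with limma 3.58.1 in R 4.3.3 (lmFit, eBayes with an intensity trend, no covariate, two-sided), with Benjamini-Hochberg adjustment over all of them and a threshold of 0.05. In simulated data with the means and spread of these 7178 genes, 3.02% of changes of 0.5, 47.0% of changes of 1 and 90.7% of changes of 2 on the log2 scale were recovered, with 3.86% false calls. The simulation changed a far smaller share of the genes than the 34.4% called in these data, so its recovery rates need not hold here. The number of arrays limits the precision.

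Members and lists were chosen with earlier results of these data known. Every member may be named; signals of each array are given for up to 4 passing members a role with the largest changes, for members that fell and for the E2F and cyclin E genes. Of further lists, up to 4 passing genes in each direction are named. Other pseudocounts, filters, scalings, probe sets and variance settings were tried, as were array weights, a block by replicate number, and fits without any 1 array.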

Additional observations from a re-analysis of the deposited data

How the results depend on the processing

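Of the 42 calls among the replication genes, 26 held in every alternative in which the gene was tested, 28 with any 1 array left out and 34 in all alternatives that kept the 6 arrays. With 1 array left out, the number of these genes that rose was 27 to 41 and that fell 1 to 3, and over all genes tested 748 to 1403 rose and 692 to 1260 fell, the lowest counts being without IRE1dn array 2 and the next (793 and 707) without IRE1dn array 3. The median change of the 55 was 0.77 to 0.95 with 1 array left out and 0.76 with a pseudocount of 16. By role, with 1 array left out, it was 0.60 to 0.94 for origin licensing, 1.05 to 1.17 for origin firing, 0.72 to 0.90 for polymerases and 0.50 to 0.63 for the clamp, loader, RPA and Okazaki group. A pseudocount of 16 gave 0.72 for licensing, 1.02 for firing, 0.71 for polymerases and 1.10 for E2F and cyclin E. Equal array medians gave 1.05 for firing, 0.76 for polymerases and 0.48 for the clamp group, and quantile normalization 0.78 for polymerases. The mean of probe sets gave 1.06 for firing, 0.60 for the clamp group and 1.20 for E2F and cyclin E. Using other probe sets in place of those ending _x_at and _s_at gave 1.06 for firing, 0.63 for the clamp group and 1 gene that fell. A 60th percentile filter gave 0.51 for the clamp group and 1.35 for E2F and cyclin E, with fewer genes tested, and array weights 0.48 for the clamp group.

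Small changes turned in sign: ORC3 was -0.020 with equal medians and -0.015 to 0.12 with 1 array left out, RFC2 was -0.093 to 0.19 with 1 array left out, and RFC5 was 0.10 with the mean of probe sets. The cause of these shifts was not tested. With the replicate number as a block, 37 genes rose and 3 fell: the calls of MCM4, RFC3 and RFC4 ended (adjusted p = 0.063, 0.053 and 0.060) and RPA3 passed as lower (0.038). Deviations from the group means correlated at -0.10, 0.06 and 0.02 between arrays of the same number, so the numbers were not taken to pair the samples. Changes of dim genes depend on the pseudocount, and signals near background are imprecise.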

Other observations

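Some regulators of the same pathway lay under the filter level of 13 units, which was set on the mean of the log2 signals of 6 arrays, and were left out of the tests. In a fit without the filter, E2F5, a repressive E2F, had 25.2 ± 10.9 units in ctrl and 6.48 ± 1.75 in IRE1dn cells (SD, n = 3 each), with a log2 change of -1.65 (limma adjusted p = 0.021). E2F2, an activating E2F, had 5.07 ± 1.18 units in ctrl and 10.8 ± 1.18 in IRE1dn cells (adjusted p = 0.10). CLSPN, claspin, a mediator of the replication checkpoint, had 2.41 ± 3.03 units in ctrl and 7.72 ± 3.27 in IRE1dn cells (adjusted p = 0.11). CDKN2A, a CDK inhibitor, had 7.11 ± 5.76 units in ctrl and 13.1 ± 2.63 in IRE1dn cells, with overlapping groups (adjusted p = 0.22). CDKN2B, another CDK inhibitor, had 0.511 ± 0.291 units in ctrl and 0.398 ± 0.276 in IRE1dn cells (adjusted p = 0.88). These genes were named after their values were seen, and sizes at such signals depend on the pseudocount.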
